A study of Mus musculus with 16 samples.

Results

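The genes described here encode the subunits, activators and assembly factors of the proteasome, the barrel-shaped protease that degrades ubiquitin-tagged proteins, measured in mouse colon mucosa. They were taken as every row of the array table with a gene symbol of the form Psma to Psmg followed by a number, which matched 53 rows. Of these, 50 rows carried 1 symbol each, and 46 of those genes belong to the proteasome or its assembly, out of 30701 genes tested. The other 4, Psmc3ip, Psme3ip1, Psmb5-ps and Psmb6-ps, matched by name only. Another 3 rows are shared by several symbols, Psmb5/Mir686, Psme2/Psme2b and Psme2b/Psme2/Psme2b-ps, so Psmb5 and Psme2 have no row of their own and are given here by these shared rows.

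The 16 arrays, 1 per sample, come from male mice on a C57BL/6J background. The groups were 4 arrays of VILcreMccf/f mice (KO) on a diet with 320 ppm sulindac, 3 of their Mccf/f siblings (WT) on sulindac, 3 of KO mice on control feed and 6 of WT mice on control feed. Feeding lasted 10 weeks and began at 6 weeks of age. KO mice lose Mcc, a gene named for its mutation in colorectal cancer, where a villin promoter drives Cre, which is the intestinal epithelium. WT mice carry the same floxed alleles without Cre. Sulindac is a non-steroidal anti-inflammatory drug, and from sulindac-fed mice only inflamed areas of the proximal colon were taken, called lesions here. Control-fed mice gave matching normal mucosa, so the drug and the choice of inflamed tissue cannot be told apart.

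The proteasome has a 20S core of stacked alpha and beta rings, and 3 of its beta subunits cut proteins. The constitutive cutting subunits are encoded by Psmb6 (beta 1), Psmb7 (beta 2) and Psmb5 (beta 5). Interferon-gamma and other inflammatory signals are known to induce Psmb9, Psmb10 and Psmb8, whose products replace them in newly built cores and form the immunoproteasome, which favours peptides that fit MHC class I molecules. The same signals induce Psme1 and Psme2, which encode the PA28 activator that caps the core. Constitutive subunit genes are known instead to be raised together by the transcription factor Nrf1 when proteasome activity falls short.

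In the RefSeq gene table of GRCm38.p6, Psmb9, Tap1, Psmb8 and Tap2 follow each other on chromosome 17, within the MHC. Tap1 and Tap2 encode the transporter that carries peptides into the endoplasmic reticulum. Psme1 and Psme2 lie on chromosome 14 with Emc9 between them, and Psmb10 lies apart on chromosome 8. The bases before the starts of an inducible pair and their constitutive counterparts are shown because the main comparison is between them. Capitals mark matches, on either strand, to a gamma-activated site (GAS, TTCNNNGAA) or an antioxidant response element core (ARE, TGACNNNGC). Nrf-family factors bind the ARE. The core of the interferon-stimulated response element (ISRE), which is GAAA, any 2 bases and GAAA again, was also searched. The windows are Psmb8 at chr17:34197945-34198194 on the plus strand, Psmb9 at chr17:34187331-34187555 on the minus strand, Psmb5 at chr14:54617996-54618245 on the minus strand and Psmb6 at chr11:70525327-70525356 on the plus strand. Only 30 bases are shown for Psmb6, since the gene table places another start of the gene upstream, at 70525324. These bases lie before the start used here but downstream of that other start. The Psmb9 window ends where Tap1 begins, since the 2 genes start 225 bases apart on opposite strands.
Psmb8: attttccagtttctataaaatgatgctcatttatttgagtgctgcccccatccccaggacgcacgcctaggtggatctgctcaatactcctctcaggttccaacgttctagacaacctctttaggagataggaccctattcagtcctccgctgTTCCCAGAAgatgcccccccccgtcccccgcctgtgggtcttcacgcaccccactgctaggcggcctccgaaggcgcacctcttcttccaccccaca
Psmb9: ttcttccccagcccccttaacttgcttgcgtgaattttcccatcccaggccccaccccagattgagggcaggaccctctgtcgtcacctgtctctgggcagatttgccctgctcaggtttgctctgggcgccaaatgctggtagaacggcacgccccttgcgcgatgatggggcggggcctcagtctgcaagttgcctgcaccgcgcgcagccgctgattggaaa
Psmb5: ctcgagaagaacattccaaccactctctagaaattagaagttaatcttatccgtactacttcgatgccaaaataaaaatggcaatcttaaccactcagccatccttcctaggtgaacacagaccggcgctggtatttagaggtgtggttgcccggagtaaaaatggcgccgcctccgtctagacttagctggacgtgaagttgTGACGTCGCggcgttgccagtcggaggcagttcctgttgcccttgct
Psmb6: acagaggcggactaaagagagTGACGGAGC

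The Psmb8 match lies at positions -97 to -89 from the start, and the Psmb9 window holds none of the 3 motifs. Psmb5 has its ARE match at -47 to -39 and Psmb6 at -9 to -1. Over windows of 250 bases before and 50 after a start, with both strands searched, a GAS match occurred in 8.3% of the 32851 windows of all genes, an ISRE match in 3.44% and an ARE match in 12.39%. Counted by gene, over 27025 genes with at least 1 window, the shares were 9.55%, 3.99% and 13.99% in the same order. Of the 40 members searched, each with a window, 5 are inducible and 35 are not. Psma8 and Psmg2 were left out of the member search by their chromosome, while the shares over all genes left out no chromosome. A GAS match occurred in Psmb8, Psmd2 and Psmg1, and an ISRE match in Psme1, Psmb3, Psmd4, Psmd9 and Psmg4. The ARE core was found in 6 of the 35 members that are not inducible, Psmb5, Psmb6, Psmc6, Psmd12, Psmd9 and Psme4 (17.1% of these genes), and in 0 of the 5 inducible ones. These matches describe letters only, and no binding was measured.

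Values are log2 expression after RMA, so 1 unit is a doubling, and errors are SDs over arrays unless called a standard error (SE). Changes were tested with limma in 1 fit over all 16 arrays, and a gene was called at a Benjamini-Hochberg adjusted p under 0.05 over 30701 genes. Mcc checked the genotype labels: it was 6.39, 6.42, 6.47 and 6.45 in KO lesions, against 7.40, 7.09 and 7.18 in WT lesions. KO controls had 6.57, 6.71 and 6.43, against 7.06 to 7.35 in WT controls, so every KO array lay below every WT array. The mean of 14 colon epithelium markers was 11.19 to 11.32 in KO lesions, 11.22 to 11.34 in WT lesions, 11.36 to 11.44 in KO controls and 11.33 to 11.50 in WT controls. Single epithelial genes went both ways: 5 rose and 5 fell in KO lesions, the falls including the chloride exchanger gene Slc26a3 (-2.22 ± 0.39), and 1 rose and 2 fell in WT lesions, Slc26a3 again among them (-1.74 ± 0.36). The mean of 10 leukocyte markers was 7.17 to 7.97 in KO lesions, 7.03 to 7.23 in WT lesions, 5.77 to 6.16 in KO controls and 5.73 to 5.89 in WT controls. All 10 rose in KO lesions and 9 of 10 in WT lesions, the exception being Coro1a, and 7 of 7 myeloid markers rose in both. In both genotypes 5 of 7 T and NK cell markers, 4 of 5 fibroblast markers and the endothelial marker Cdh5 also rose. Of the 3 endothelial markers, Pecam1 rose in KO alone and Kdr was called in neither genotype. Of the 4 B and plasma cell markers and the 3 smooth muscle markers, 0 were called in either genotype. Of all genes, 8.99% were called higher and 12.1% lower in KO lesions, and 6.98% and 8.37% in WT lesions. The fibroblast mean was 7.13 to 7.69 in KO lesions and 7.27 to 7.48 in WT lesions, against 5.81 to 6.31 in KO controls and 5.96 to 6.25 in WT controls. Leukocytes are known to carry immunoproteasomes at rest, and the part of all these markers in the results below was not tested. In bulk tissue, fewer cells of a type and less RNA per cell cannot be told apart.

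The sample descriptions end in numbers that fall in a lower and a higher series, whose meaning the labels do not give. All lesions and WT controls 1 to 3 are in the lower series, and all KO controls and WT controls 4 to 6 in the higher one. The KO response (KO lesions minus KO controls) cannot be told apart from the series, and its values with the series as a covariate, linked through WT controls alone, are given where they bear on a result.

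The inducible cutting subunits rose in lesions of both genotypes, and Psmb8 moved most. Psmb8 was 7.90, 7.85, 7.73 and 8.20 in KO lesions, against 6.28, 6.28 and 6.27 in KO controls. In WT lesions it was 8.20, 7.88 and 8.05, against a lowest, median and highest value of 5.98, 6.25 and 6.61 in WT controls. Every lesion lay above every control by more than 1 unit. The log2 change was 1.64 ± 0.14 (SE) in KO (3.12-fold, adjusted p = 1.05e-06) and 1.79 ± 0.13 in WT (3.45-fold, adjusted p = 2.91e-07).

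Psmb9 was 6.70, 6.76, 6.60 and 7.13 in KO lesions, against 5.95, 5.81 and 5.87 in KO controls. WT lesions had 7.0, 6.97 and 6.91, against 5.71, 5.86 and 5.99 (lowest, median and highest) in WT controls. Lesions and controls again did not overlap, with KO lesion 4 the highest array and the same array that was highest for Psmb8 among KO lesions. The change was 0.92 ± 0.11 in KO (1.89-fold, adjusted p = 1.72e-05) and 1.10 ± 0.10 in WT (2.14-fold, adjusted p = 2.24e-06). Both genes kept their calls with every array left out in turn and with the series as a covariate.

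Psmb10, the inducible form of beta 2, was lower in KO lesions than in WT lesions. It was 9.31, 9.16, 9.25 and 9.27 in KO lesions, against 9.12, 8.79 and 8.96 in KO controls. It was 9.83, 9.79 and 9.83 in WT lesions, against 8.71, 8.93 and 9.13 (lowest, median and highest) in WT controls. KO lesions therefore sat just above all controls, and WT lesions well above KO lesions with no overlap. The change was 0.29 ± 0.09 in KO (1.22-fold, adjusted p = 0.0389) and 0.89 ± 0.09 in WT (1.86-fold, adjusted p = 6.06e-06). The call in KO was lost with the series as a covariate (0.44, adjusted p = 0.0513), under 6 other settings and without any one of 5 of the 7 KO arrays (0.20 to 0.37 over the 7).

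**Figure D1:**
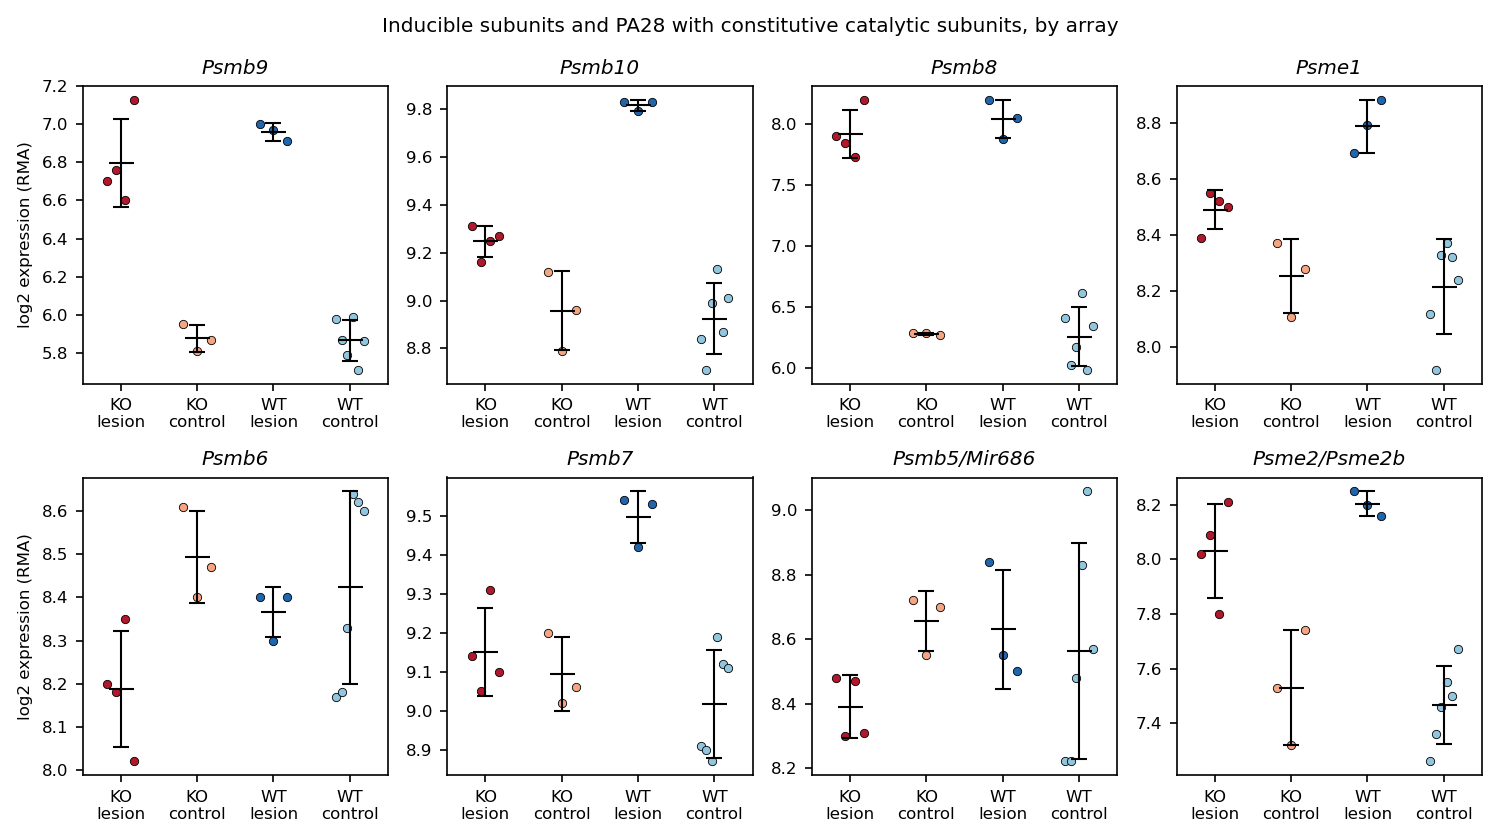
Log2 expression (RMA) on each array for the inducible cutting subunits Psmb9, Psmb10 and Psmb8 with Psme1 (upper row) and for Psmb6, Psmb7 and the shared rows Psmb5/Mir686 and Psme2/Psme2b (lower row), each panel with its own vertical axis. Points are arrays and bars are mean ± SD in 4 KO lesions, 3 KO controls, 3 WT lesions and 6 WT controls: Psmb8 and Psmb9 separate lesions from controls in both genotypes, while Psmb6 and Psmb5/Mir686 lie lower in KO lesions than in KO controls. All KO controls are of the higher number series, in which Psmb6 and Psmb5/Mir686 were also higher among WT controls.

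Of the PA28 genes, Psme1 was called in WT alone and the rows shared by Psme2 in both genotypes. Psme1, which encodes PA28 alpha, was 8.39, 8.55, 8.52 and 8.50 in KO lesions, against 8.37, 8.11 and 8.28 in KO controls. It was 8.69, 8.79 and 8.88 in WT lesions, against 7.92, 8.28 and 8.37 (lowest, median and highest) in WT controls. Lesions lay above controls in both genotypes, but the change of 0.24 ± 0.10 in KO did not pass (adjusted p = 0.122), while that of 0.57 ± 0.09 in WT did (1.48-fold, adjusted p = 5.86e-04). Its window holds an ISRE match just after the start, at positions 10 to 19.

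The row shared by Psme2, which encodes PA28 beta, and the Psme2b copy on chromosome 11 was tested in a fit over all 72688 rows, of which 4.83% were called higher and 6.67% lower in KO, and 3.45% and 4.08% in WT. It was 8.02, 8.09, 7.80 and 8.21 in KO lesions, against 7.53, 7.32 and 7.74 in KO controls. It was 8.25, 8.20 and 8.16 in WT lesions, against 7.26, 7.48 and 7.67 (lowest, median and highest) in WT controls. The change was 0.50 ± 0.12 in KO (adjusted p = 0.0104) and 0.73 ± 0.11 in WT (adjusted p = 5.25e-04), with no overlap in either genotype. The other shared row, Psme2b/Psme2/Psme2b-ps, changed by 1.32 ± 0.22 in KO (adjusted p = 7.80e-04) and 1.17 ± 0.20 in WT (adjusted p = 0.00166). Which of the near-identical copies gave these signals cannot be told apart.

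Of the constitutive cutting subunits, only Psmb7 was called, and only in WT. Psmb6 was 8.20, 8.18, 8.35 and 8.02 in KO lesions, against 8.61, 8.40 and 8.47 in KO controls. In WT lesions it was 8.40, 8.30 and 8.40, inside the range of WT controls (8.17, 8.46 and 8.64 as lowest, median and highest). Psmb6 thus lay lower in every KO lesion than in any KO control, with a change of -0.31 ± 0.12 that did not pass (adjusted p = 0.0925), and its change in WT was -0.06 ± 0.11 (adjusted p = 0.788). In WT controls Psmb6 was higher in the higher number series by 0.40 ± 0.09 (SE), and all KO controls are in that series. Its lower level in KO lesions therefore cannot be told apart from the series.

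Psmb5/Mir686 was 8.48, 8.30, 8.47 and 8.31 in KO lesions, against 8.72, 8.55 and 8.70 in KO controls. It was 8.84, 8.55 and 8.50 in WT lesions, against 8.22, 8.53 and 9.06 (lowest, median and highest) in WT controls. KO lesions again lay below KO controls, but neither change passed in the fit over all rows (-0.27 ± 0.17 in KO, adjusted p = 0.406, and 0.07 ± 0.16 in WT, adjusted p = 0.85). WT controls had 8.22, 8.22 and 8.48 in the lower number series and 8.83, 9.06 and 8.57 in the higher one. The KO change of this row thus cannot be told apart from the series either. For Psmb7, WT lesions stood above all other groups. It was 9.14, 9.05, 9.31 and 9.10 in KO lesions, against 9.20, 9.02 and 9.06 in KO controls, and 9.54, 9.42 and 9.53 in WT lesions, against 8.87, 9.01 and 9.19 (lowest, median and highest) in WT controls. Its change was 0.05 ± 0.09 in KO (adjusted p = 0.771) and 0.48 ± 0.08 in WT (1.39-fold, adjusted p = 0.00104).

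The distance between an inducible subunit and the constitutive one it replaces was taken on each array, as a log2 difference. Only its change between groups is read, since probes of different genes have no common scale, and it has no test. The distance of Psmb8 from Psmb5/Mir686 was -0.58, -0.45, -0.74 and -0.11 in KO lesions, against -2.43, -2.27 and -2.43 in KO controls, a change of 1.90. In WT lesions it was -0.64, -0.67 and -0.45, against -3.08 to -1.81 in WT controls, a change of 1.72. Every lesion lay above every control in both genotypes. Psmb9 against Psmb6 changed by 1.23 in KO and 1.15 in WT, and Psmb10 against Psmb7 by 0.24 in KO and 0.42 in WT, again with no overlap of lesions and controls. The median of the 4 inducible genes with a row of their own, taken against the median of the 30 other subunits of the particle, moved by 0.84 in KO and 0.76 in WT. Between KO and WT lesions that last distance differed by 0.00, while for Psmb10 against Psmb7 every KO lesion lay below every WT lesion (-0.22). In WT controls the distance of Psmb9 from Psmb6 was -2.19, -2.31 and -2.54 in the lower number series. It was -2.65, -2.92 and -2.74 in the higher one. The distance of Psmb8 from Psmb5/Mir686 was -1.81, -2.20 and -2.31 in the lower series, against -2.22, -3.08 and -2.23. That distance and the remaining ones overlapped between the series. All KO controls are in the higher series, so the size of the KO changes cannot be told apart from it.

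**Figure D2:**
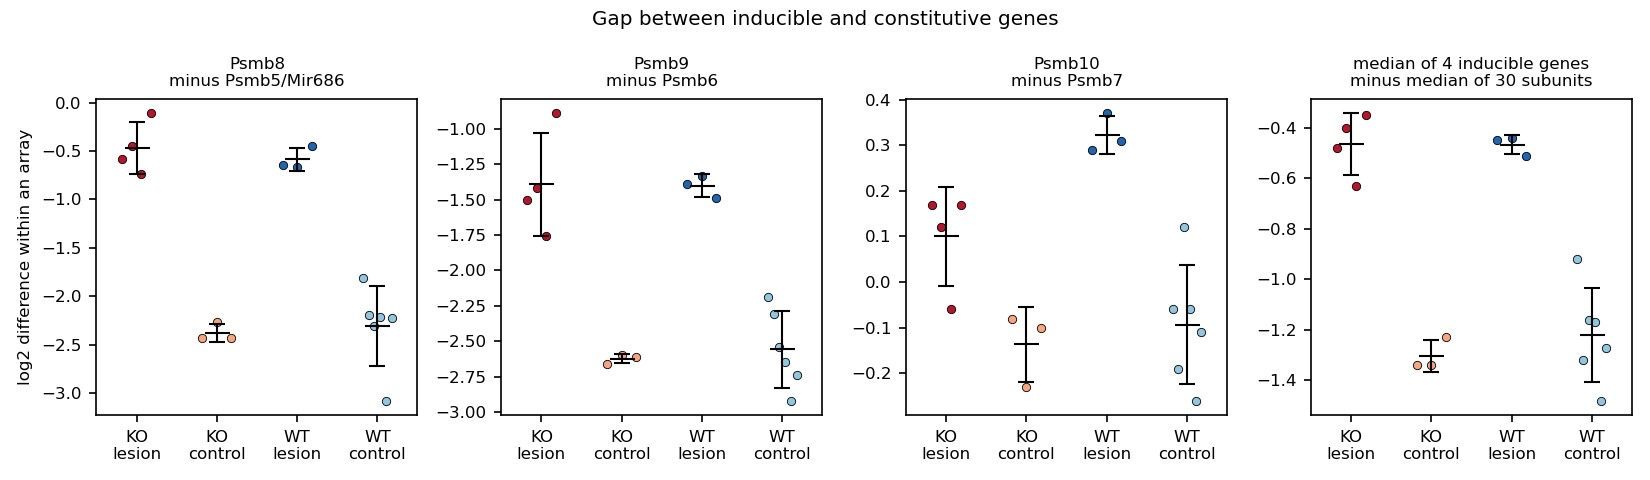
Log2 difference within each array between an inducible subunit and its constitutive counterpart, and between the median of the 4 inducible genes and the median of the 30 other subunits. Points are arrays, bars are mean ± SD (4 KO lesions, 3 KO controls, 3 WT lesions, 6 WT controls), vertical axes differ between panels, and in each panel every lesion lies above every control of its genotype.

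Across the 46 proteasome and assembly genes, 4 rose and 2 fell in KO lesions, against 8.99% of all genes called higher and 12.1% called lower in that comparison. In WT lesions 18 rose and 0 fell, against 6.98% and 8.37% of all genes. The median change was 0.06 in KO and 0.29 in WT, where the medians over all genes were 0.01 and -0.06. The 4 that rose in KO were Psmb8, Psmb9, Psmb10 and the alpha ring gene Psma5, and all 4 also rose in WT. Lesions and controls did not overlap, lesions above, for 6 of the 46 in KO and 19 of the 46 in WT, against 12.7% and 8.15% of all genes. In a separate fit of the 19714 genes with a mean level above that of the median row, adjusted over those alone, 4 of 44 members rose and 2 fell in KO, against 12.8% and 19% of its genes, and 20 rose and 0 fell in WT, against 10.6% and 12.2%. Changes below 0 made up 48.7% of all genes in KO and 64.6% in WT (52.5% and 57.9% above the median level), against 16 and 8 of the 46 members. The WT count depended on 1 array, being 10 genes without WT lesion 3 and 10 to 22 over the 9 arrays left out in turn.

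The alpha ring gates the core, and most of its genes rose in WT. Of 7 genes, 5 rose in WT lesions (Psma1, Psma2, Psma3, Psma5 and Psma7) and 1, Psma5, in KO lesions. Psma5 was 8.59, 8.60, 8.73 and 8.77 in KO lesions, against 8.34, 8.10 and 8.44 in KO controls. It was 9.23, 8.77 and 8.98 in WT lesions, against 8.05, 8.28 and 8.52 (lowest, median and highest) in WT controls. Lesions lay above controls in both genotypes, by 0.38 ± 0.13 in KO (adjusted p = 0.044) and by 0.73 ± 0.12 in WT (adjusted p = 4.79e-04). The KO call was lost in 6 of 7 fits without 1 array.

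For Psma2, lesions and controls overlapped in KO and did not in WT. It was 9.23, 9.30, 9.44 and 9.51 in KO lesions, against 9.29, 9.03 and 9.23 in KO controls, which overlap (0.19 ± 0.09, adjusted p = 0.172). In WT lesions it was 9.74, 9.66 and 9.64, above all WT controls at 9.06 to 9.37 (0.50 ± 0.08, adjusted p = 6.88e-04). Psma1 was 8.37, 8.38, 8.51 and 8.71 in KO lesions, against 8.44, 8.24 and 8.18 in KO controls, and 8.79, 8.77 and 8.83 in WT lesions, against 8.0 to 8.47 in WT controls. Its change was 0.21 ± 0.11 in KO (adjusted p = 0.228) and 0.52 ± 0.10 in WT (adjusted p = 0.00216). Over the 7 genes the change ran from -0.11 to 0.38 in KO and from 0.24 to 0.73 in WT.

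Among the 4 structural beta ring genes, Psmb1 to Psmb4, only Psmb2 rose in WT (0.60 ± 0.16, adjusted p = 0.0192) and none in KO. Psmb2 was 8.02, 7.92 and 8.16 in WT lesions, above all WT controls at 6.86 to 7.76. In KO lesions it was 7.68, 7.62, 7.80 and 7.56, inside the range of KO controls at 7.47 to 7.85. Psmb2 varied widely among the WT controls themselves, and those of the higher number series held its 3 highest values.

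The 19S cap recognises ubiquitin chains and unfolds substrates. Of its 6 ATPase genes, Psmc1 to Psmc6, only Psmc1 rose in WT lesions (0.36 ± 0.08, adjusted p = 0.00687), and none was called in KO, where changes ran from -0.12 to 0.20. Of the 11 non-ATPase genes measured, 6 rose in WT: Psmd1, Psmd2, Psmd3, Psmd7, Psmd11 and Psmd14. Psmd14 encodes the enzyme that removes ubiquitin from bound substrates, and Psmd1 and Psmd2 the large scaffold subunits. None of the 11 passed in KO, although 10 of 11 changes were above 0, with a range from -0.02 to 0.27.

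Psmd3 rose most among these in WT. It was 8.23, 7.82 and 8.11 in WT lesions, against 7.42, 7.54 and 7.74 (lowest, median and highest) in WT controls, a change of 0.49 ± 0.11 (1.41-fold, adjusted p = 0.00595). In KO lesions it was 7.96, 7.69, 8.04 and 7.71, against 7.67, 7.77 and 7.46 in KO controls (0.22 ± 0.12, adjusted p = 0.239). Psmd2 was the closest of the cap genes to a call in KO, at 0.27 ± 0.11 (adjusted p = 0.0873), and rose in WT by 0.43 ± 0.10 (adjusted p = 0.00657). The WT calls of Psma3, Psma7, Psmd7, Psmd11 and Psmd14 were lost over all rows and in 4 to 6 of the 9 fits without 1 array, those of Psmc1 and Psmd1 without WT lesion 3, and that of Psmb2 without WT lesion 1 and without WT lesion 3.

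**Figure D3:**
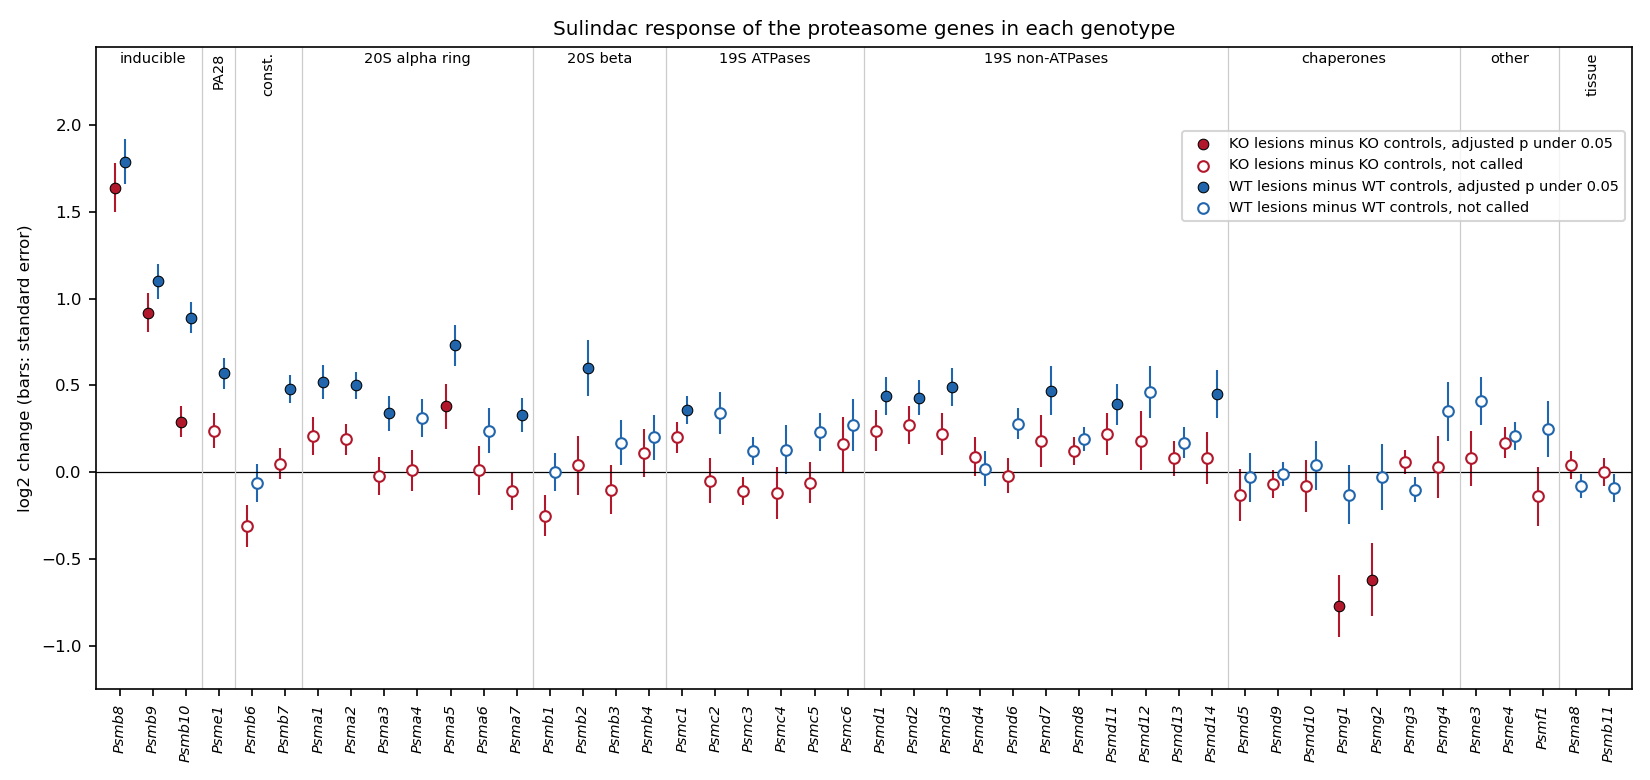
Log2 change between lesions and controls of the same genotype, with its standard error, for each of the 46 genes, ordered by role. Red points are KO, blue points are WT, and filled points passed an adjusted p of 0.05: Psmb8 and Psmb9 lie highest in both genotypes, the core and cap genes lie mostly above 0 in WT and around 0 in KO, and Psmg1 and Psmg2 lie lowest in KO.

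The number series moved with the constitutive genes and bears directly on the KO column of these results. The mean of the 30 constitutive subunits was 8.66, 8.62, 8.82 and 8.69 in KO lesions and 8.93, 8.82 and 8.95 in WT lesions. It was 8.74, 8.56 and 8.60 in KO controls, 8.41, 8.45 and 8.48 in WT controls of the lower series and 8.73, 8.75 and 8.66 in WT controls of the higher series. WT controls of the higher series thus lay with KO controls and above the other WT controls. Between the 2 series of WT controls, 30 of 30 genes were higher in the higher series, against 43% of all genes, with a median of 0.26, against -0.03 over all genes. None passed the adjusted threshold, and 20 of 30 passed an unadjusted p of 0.05, as did 3145 of the 30701 genes. For 18 of the 30 (60%) the 3 higher-series WT controls all lay above the other 3, against 9.11% of all genes. The 4 inducible genes differed by a median of 0.13, with 0 of 4 so separated.

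With the series as a covariate, the median change of the 30 constitutive subunits was 0.33 in KO, in place of 0.08, and 0.46 in WT, in place of 0.33. The medians over all genes with the covariate were -0.03 in KO and -0.08 in WT, and their share above 0 was not taken. In that fit 29 of 30 changes in KO were above 0 and 2 were called, while 22 of 30 were called in WT. Over the 46 genes the counts became 4 rises and 0 falls in KO, against 4.52% and 3.66% of all genes, and 27 rises and 0 falls in WT, against 6.6% and 6.83%. In WT, where lesions can be set against the 3 controls of their own series, 22 of 46 rose and 0 fell, against 5.16% and 4.55% of all genes. The rise of constitutive genes in WT was thus as large within the series, while their lack of calls in KO cannot be told apart from the series.

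**Figure D4:**
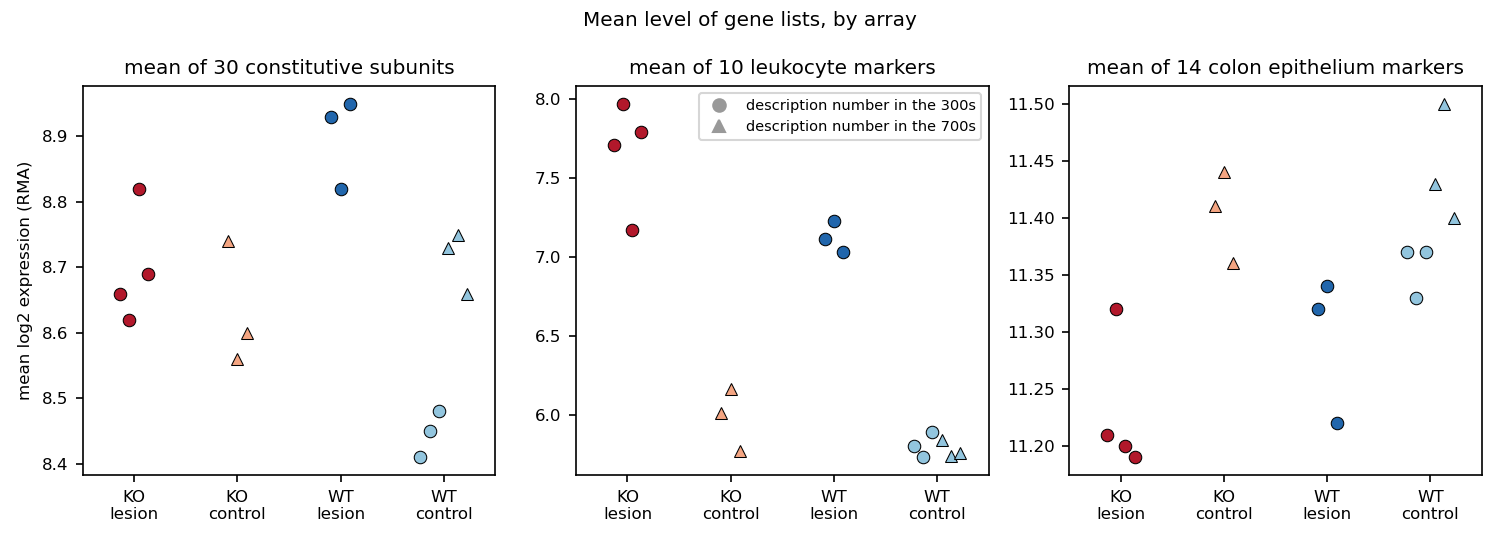
Mean log2 expression on each array of the 30 constitutive subunits, 10 leukocyte markers and 14 colon epithelium markers, in 4 KO lesions, 3 KO controls, 3 WT lesions and 6 WT controls. Circles are arrays of the lower number series and triangles those of the higher one: the constitutive subunits of WT controls split by series, at 8.41 to 8.48 and 8.66 to 8.75, and leukocyte markers separate all lesions from all controls.

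Of the 7 assembly chaperone genes, 2 fell in KO lesions and none was called in WT. Psmg1 and Psmg2 encode partners that form a dimer guiding alpha ring assembly. Psmg1 was 6.51, 6.94, 7.22 and 6.79 in KO lesions, against 7.77, 7.62 and 7.52 in KO controls (-0.77 ± 0.18, adjusted p = 0.00622). It was 7.34, 7.15 and 7.41 in WT lesions, inside the range of WT controls, whose median was 7.47 and highest value 7.80 (-0.13 ± 0.17, adjusted p = 0.652). KO lesions lay below KO controls with no overlap, as they did for 14.4% of all genes (11.6% in WT). Psmg2 was 6.53, 7.06, 7.68 and 6.98 in KO lesions, against 7.94, 7.69 and 7.43 in KO controls, with KO lesion 3 among the controls (-0.62 ± 0.21, adjusted p = 0.046). In WT lesions it was 7.36, 7.54 and 7.73, against 7.24 to 7.77 in WT controls (-0.03 ± 0.19, adjusted p = 0.947). Psmg1 was itself higher in WT controls of the higher series by 0.53, and with the series as a covariate neither call held (-0.24, adjusted p = 0.64, and -0.44, adjusted p = 0.545). The changes of Psmg3, Psmg4, Psmd5, Psmd9 and Psmd10 ran from -0.13 to 0.06 in KO and from -0.10 to 0.35 in WT, and none passed.

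The remaining regulators did not pass in either genotype. Psme3 encodes the nuclear activator PA28 gamma, Psme4 the activator PA200 and Psmf1 the inhibitor PI31. Psme3 was 9.24, 9.16, 9.75 and 9.30 in KO lesions, against 9.42, 9.57 and 8.85 in KO controls, and 9.76, 9.56 and 9.86 in WT lesions, against 9.21 to 9.44 in WT controls. Its WT lesions lay above all WT controls, yet the change missed the threshold (0.41 ± 0.14, adjusted p = 0.0704), and that in KO was 0.08 ± 0.16 (adjusted p = 0.788). Psme4 was 8.57, 8.69, 8.69 and 8.84 in KO lesions, against 8.40, 8.55 and 8.64 in KO controls, and 8.60, 8.82 and 8.83 in WT lesions, against 8.44 to 8.74 in WT controls. Psmf1 was 6.85, 6.88, 7.20 and 6.76 in KO lesions, against 7.12, 7.23 and 6.84 in KO controls, and 7.05, 6.94 and 7.43 in WT lesions, against 6.45 to 7.13 in WT controls. Both overlapped between lesions and controls, with adjusted p-values of 0.23 and 0.652 in KO and 0.118 and 0.332 in WT.

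The testis subunit gene Psma8 (3.47 to 3.77 over all arrays) and the thymus subunit gene Psmb11 (4.60 to 4.96) lay below every array median (4.90 to 5.05) or close to it, and neither was called. Of the genes matched by name only, Psme3ip1 fell in KO (-0.40 ± 0.13, adjusted p = 0.0321), and the pseudogenes Psmb5-ps and Psmb6-ps and the recombination gene Psmc3ip were not called in either response.

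Directly between lesions of the 2 genotypes, 1 of the 46 genes differed, Psmb10, which was lower in KO lesions by -0.57 ± 0.09 (adjusted p = 0.0269). Of all genes, 0.0586% were called lower and 0.248% higher. All lesions belong to 1 number series, so this comparison is free of that confounding. Lesions with the same replicate number shared deviations, but no label states a pairing, and KO lesion 4 shares its number with no WT lesion. The replicate block used that number as a factor over all arrays, controls included. With it Psmb10 differed by -0.61 and was no longer called (adjusted p = 0.0858), with 0.00651% of all genes then called higher and 0% lower. The Psmb10 call was also lost in 5 of 7 fits without 1 array, with changes from -0.59 to -0.54. Without KO lesion 3 a total of 4 members passed.

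The other core genes lay on the same side without passing. Of the 46 changes, 42 were below 0, with a median of -0.19, while 40% of all genes were below 0 (48.5% above the median level) with a median of 0.04. All 13 constitutive core genes were below 0, with a median of -0.31, and 0 of 13 passed. Their mean was 8.64, 8.64, 8.79 and 8.72 in KO lesions, against 9.03, 8.90 and 8.99 in WT lesions, which do not overlap. KO lesions lay below WT lesions with no overlap for 11 of the 46 genes, against 3.92% of all genes. Psmb7 (-0.35 ± 0.09, adjusted p = 0.134) and Psma2 (-0.31 ± 0.09, adjusted p = 0.164) had the lowest p-values after Psmb10, and Psme1 differed by -0.30 ± 0.10 (adjusted p = 0.23). Psmb8 (-0.13 ± 0.14, 95% interval -0.43 to 0.17) and Psmb9 (-0.17 ± 0.11, 95% interval -0.39 to 0.06) did not pass. The 10 general leukocyte markers went the other way, with 10 of 10 above 0, a median of 0.44 and none called. Lists of single lineages differed. Myeloid markers had 6 of 7 above 0 and a median of 0.34. T and NK cell markers had 4 of 7 below 0 and a median of -0.02. B and plasma cell markers had 3 of 4 below 0 and a median of -0.08. The myeloid marker Csf3r was higher in KO lesions by 1.36 ± 0.22 (adjusted p = 0.0251), a call also lost with the block (1.38 ± 0.21, adjusted p = 0.0999).

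On the control diet no member differed between KO and WT mice, and no gene of the 30701 did in limma (0%), while 641 passed an unadjusted p of 0.05. Changes of the 46 ran from -0.14 to 0.21 with a median of 0.03 and 33 above 0, where the median over all genes was -0.02. The direction turned with the number series as a covariate or within 1 series, where the median was -0.07 and 39 of 46 were below 0. The median over all genes was -0.01 in both of those fits. The share of all genes on each side of 0 was not taken here, so these counts have no background. Those with the lowest p were Psmg3 (-0.14 ± 0.07) and Psmc2 (0.20 ± 0.12), both with an adjusted p of 1. Psmg3 was 4.99, 5.17 and 5.19 in KO controls, against 5.15 to 5.38 in WT controls, and Psmc2 was 8.81, 8.78 and 8.64 in KO controls, against 8.20 to 8.78 in WT controls, so both overlapped. The 95% interval was -0.25 to 0.30 for Psmb8, -0.20 to 0.22 for Psmb9 and -0.15 to 0.22 for Psmb10.

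The interaction asks whether the response differed between genotypes. It was called for 0 of the 46 genes and for 1 gene in all (0.00326% higher, 0% lower), with 3422 passing an unadjusted p of 0.05. The 2 members with the lowest p were Psmb10 (-0.60 ± 0.13, adjusted p = 0.314) and Psmb7 (-0.42 ± 0.12, adjusted p = 0.396). Of the 46 values, 42 were below 0, meaning a smaller rise or a larger fall in KO, with a median of -0.26, while 38.1% of all genes were below 0 (47.1% above the median level) with a median of 0.06. For the 30 constitutive subunits the median of -0.27 became -0.13 with the series as a covariate, and 26 of 30 remained below 0. The median over all genes was 0.04 in that fit, and their share below 0 was not taken. The larger number of calls in WT than in KO is thus not shown to be a difference between the genotypes.

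Genes that work beside the immunoproteasome rose in the same lesions. Of the 11 class I peptide loading genes, 6 rose in KO lesions and 7 in WT lesions. The background for this and the lists below is 8.99% of all genes called higher and 12.1% lower in KO. In WT it is 6.98% and 8.37%. Tap1, the neighbour of both Psmb8 and Psmb9, was 8.62, 8.60, 8.14 and 8.85 in KO lesions, against 6.85, 6.90 and 6.78 in KO controls. It was 8.86, 8.47 and 8.66 in WT lesions, against 6.70 to 7.02 in WT controls. Tap1 thus separated lesions from controls in both genotypes, by 1.71 ± 0.13 in KO (adjusted p = 4.5e-07) and 1.82 ± 0.12 in WT (adjusted p = 1.61e-07). B2m, the light chain of class I molecules, rose by 0.91 ± 0.13 in KO and 1.02 ± 0.12 in WT, and H2-D1, a heavy chain, by 0.77 ± 0.11 in KO and 0.70 ± 0.10 in WT. Tapbpl, a peptide editor, was lower in KO lesions than in WT lesions (-0.49 ± 0.09, adjusted p = 0.0447), a call lost with the replicate block (-0.51 ± 0.07, adjusted p = 0.0954). Erap1, which trims peptides, was called in WT alone (0.23 ± 0.15 in KO and 0.74 ± 0.14 in WT), a contrast whose interaction was not called.

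Of the 10 genes of interferon-gamma signalling with a row, 7 rose in KO lesions and 5 in WT lesions. Ifng itself was 5.83, 7.94, 4.49 and 6.90 in KO lesions, against 3.85, 3.64 and 3.91 in KO controls. WT lesions had 5.61, 5.19 and 5.28, against 3.75 to 4.07 in WT controls. Its KO lesions spread far more than any other group, with KO lesion 3 the lowest, and its control values lie below the array medians, where RMA compresses differences. The change was 2.48 ± 0.51 in KO (adjusted p = 0.00229) and 1.48 ± 0.47 in WT (adjusted p = 0.0464). Irf1, a transcription factor that drives immunoproteasome genes, rose by 1.22 ± 0.17 in KO and 0.89 ± 0.16 in WT, and Irf8, Jak2 and Ciita rose in both. Nlrc5 had no row of 1 symbol and is not analysed here. None of the 10 differed between KO and WT lesions.

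Proteins that bind or build the proteasome were measured by 7 genes. Pomp, the maturation factor that immunoproteasome assembly requires, was 9.22, 9.42, 9.55 and 9.12 in KO lesions, against 9.31, 8.72 and 9.21 in KO controls (0.25 ± 0.16, adjusted p = 0.35). In WT lesions it was 9.38, 9.55 and 9.35, above all WT controls at 8.55 to 9.10 (0.55 ± 0.15, adjusted p = 0.0222). Usp14, a ubiquitin protease of the cap, also rose in WT (0.48 ± 0.14, adjusted p = 0.0245). These 2 were the ones called in WT, and Ecpas (-0.39 ± 0.11) and the ubiquitin ligase gene Ube3c (-0.34 ± 0.10) fell in KO, with adjusted p-values of 0.0153 and 0.0199.

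The Nrf1 gene, Nfe2l1, was 8.43, 8.52, 8.41 and 8.58 in KO lesions, against 8.51, 8.69 and 8.37 in KO controls, and 8.60, 8.50 and 8.57 in WT lesions, against 8.25 to 8.73 in WT controls. It was not called (-0.04 ± 0.10 in KO and 0.00 ± 0.09 in WT), and transcript level says nothing of the processing that is known to activate the Nrf1 protein. Nfe2l2, which encodes Nrf2, fell in both genotypes, by 0.35 ± 0.11 on the log2 scale in KO (adjusted p = 0.0296) and by 0.46 ± 0.10 in WT (adjusted p = 0.00516). Vcp, an unfoldase that feeds the proteasome, rose in WT (0.42 ± 0.10, adjusted p = 0.00741).

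Of 5 cytosolic peptidases that trim proteasome products, Lap3, Npepps and Tpp2 rose in both genotypes. Lap3, a leucine aminopeptidase, changed by 0.56 ± 0.19 in KO (adjusted p = 0.0467) and 1.12 ± 0.18 in WT (adjusted p = 4.12e-04). Of 6 ubiquitin and ubiquitin-like genes, 5 rose in both, namely Ubd, Isg15, Uba7, Ube2l6 and Usp18. Usp18, which removes Isg15 from proteins, changed most, by 2.16 ± 0.33 in KO and 2.82 ± 0.31 in WT. Of 6 ubiquitin receptors and shuttles, 0 were called in KO and 2, Rad23b and Nploc4, rose in WT.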

How the data were processed

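RNA of 16 mouse colon mucosa samples was measured on 1 Affymetrix array each. The authors deposited log2 expression values made with RMA, which corrects background, normalises quantiles and summarises probes, and Affymetrix Power Tools 1.16.1, per the submitters' processing notes. The genome build they used is not given in the sources used here. Array medians lay between 4.90 and 5.05, RMA gives no detection call, and precision is limited by how many arrays there are.

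Of 72688 rows, 31259 carried 1 gene symbol, 1491 several, and 39938 were not listed in the platform's probe table. Symbols were updated through the RefSeq table of GRCm38.p6 (1181 changed). The row with the highest mean stood for each of the 443 genes with several rows, which left 30701 genes. No member had more than 1 row of its own. Rows of several symbols were tested in a fit over all rows. The distance planned with 5 inducible genes was taken with the 4 that have a row of their own, and the planned comparison of protein sequences was not made.

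Group means were fitted in limma 3.58.1 (R 4.3.3), with moderated two-sided tests and Benjamini-Hochberg adjustment over all genes. Arrays of the same group correlated at r from 0.983 to 0.996, and none repeated another. No label says which arrays are separate animals, so p-values measure the spread between these samples. Alternatives covered all rows, the fit, array weights, centring, the number series, a replicate block and each array left out. The replicate block is the replicate number as a factor over all arrays and groups, which leaves fewer residual degrees of freedom. Deviations of arrays with the same replicate number correlated in the comparison of lesions (r of 0.465, 0.296 and 0.54 over 3 pairs). That link comes from the data alone, and no label states a pairing. The deviations did not correlate throughout in the WT response (0.347, 0.171 and 0.097), and their correlations were negative in the other comparisons. The block thus also fits the number to controls, where lesions and controls of KO mice did not share it.

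On simulated data for these 30701 genes, the fit called 55.2% (KO response) and 61.2% (WT response) of log2 changes of 0.5, and 91% of changes of 1 in both. In the interaction it called 28.4% of changes of 0.5 and 73.1% of changes of 1. Few genes were changed in the simulation, and its noise was independent between arrays. The real responses had many more called genes, and real arrays shared deviations. These shares therefore do not give the power of the real comparisons.

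Full values by sample are given for the inducible genes and their counterparts, for Psme3, Psme4 and Psmf1, and for up to 3 called rises and falls per comparison, or the 2 lowest p where none passed. Psmd3 was added after its values were seen. Partner genes are those with the largest called changes in each list, plus Irf1, Nfe2l1, Pomp and Tap1. Members, lists and tests were chosen with earlier results of these data known. Promoter windows are RefSeq's for GRCm38.p6.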

Additional observations from a re-analysis of the deposited data

Results flagged for a closer look

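Among 98 groups of 4 or 6 arrays checked over 49 rows, 4 held an array that stood apart from the others of its group, where chance gives about 1 in 20. Psmd1 was high in KO lesion 3 at 9.24, against 8.93 to 8.96 in the other KO lesions. Psmg3 was low in the same array at 5.13, where the other KO lesions all had 5.19. Psmd10 was high in WT control 4 at 8.41, and the shared row Psme2b/Psme2/Psme2b-ps was high in WT control 6 at 8.16. KO lesion 3 was also the lowest of the KO lesions for Psmb8, Psmb9 and Ifng and for the leukocyte mean (7.17), and the highest for the mean of the 30 constitutive subunits (8.82). The cause was not tested.

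Lesions of the genotypes moved in opposite directions for 2 genes, and these were picked by that direction, not by a test. For Psma7 every KO lesion lay below the mean of KO controls and every WT lesion above the mean of WT controls, with a difference between the responses of -0.44 (limma interaction, adjusted p = 0.406). For Psmg3 the directions were the other way round, with a difference of 0.16 (adjusted p = 0.509). In WT controls the higher number series differed from the lower one by 0.29 ± 0.10 (SE) for Psma7 and -0.15 ± 0.07 for Psmg3. All KO controls are in the higher series, so the directions in KO cannot be told apart from it. Neither passed.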

How the results depend on the processing

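Calls of Psmb8 and Psmb9 in both responses held in every setting run. For the other called members apart from Psmb10 and the PA28 genes, each call was checked gene by gene in the alternative settings. Over these 331 checks the call was the same 266 times, lost 65 times and reversed 0 times. Checks of different genes come from the same fits, so they are not independent. The KO response had 3 called members over all rows and with the replicate block, in place of 6, and 3 to 5 with an array left out. The WT response had 10 to 22. Between lesions, 0 members were called over all rows, with the compared groups alone, within 1 number series and with the replicate block, 2 with array weights, and 0 to 4 with an array left out. The control-diet count stayed at 0, and the interaction's was 0 to 1, the 1 being without KO lesion 3.

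The KO change of Psmb10 lost its call over all rows (0.29, adjusted p = 0.0701), with trend and robust moderation (0.29, 0.0693), in the compared groups alone (0.29, 0.0758), after centring (0.24, 0.0954), with array weights (0.24, 0.0704), with the series as a covariate (0.44, 0.0513) and with the replicate block (0.25, 0.0644). The difference of Psmb10 between lesions lost its call over all rows (-0.57, 0.0579), in the compared groups alone (-0.57, 0.229), within 1 series (-0.57, 0.116) and with the block (-0.61, 0.0858). In the compared groups alone Psme2/Psme2b in KO was 0.50 (adjusted p = 0.0621). The distance of inducible from other genes in KO was 0.71 with means in place of medians. Fits within fewer arrays have fewer residual degrees of freedom, and the cause of the other losses was not tested.

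Ranges with 1 array left out, KO then WT response, were 1.55 to 1.70 and 1.71 to 1.87 for Psmb8, 0.81 to 0.99 and 1.07 to 1.12 for Psmb9, 0.20 to 0.37 and 0.85 to 0.93 for Psmb10, 0.16 to 0.29 and 0.51 to 0.62 for Psme1, 0.39 to 0.61 and 0.69 to 0.77 for Psme2/Psme2b (call in KO lost without KO control 2), and 1.15 to 1.53 and 1.06 to 1.27 for Psme2b/Psme2/Psme2b-ps. The distances ranged from 1.79 to 2.0 and 1.57 to 1.82 (Psmb8), 1.06 to 1.35 and 1.08 to 1.23 (Psmb9), 0.19 to 0.29 and 0.38 to 0.46 (Psmb10), and 0.80 to 0.89 and 0.70 to 0.82 (medians). Between lesions Psmb10 ranged from -0.59 to -0.54. With the replicate block no other call of an inducible gene changed.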
